A study of Mus musculus with 12 samples.

Results

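Weak fed sites are places in the liver genome where CTCF binding was called in only 1 or 2 of 3 fed libraries and in no starved library. They were found by merging peaks of 6 lists that overlapped by at least 1 bp into 76061 sites and keeping the 30459 sites with that pattern of calls (40.0% of all sites). The pattern of calls chose them, so their counts, libraries, scores and widths are given as a description, with no test. The data are ChIP-seq of CTCF in whole livers of wild-type male C57BL6/Ncrl mice between 3 and 4 months old, all kept on normal chow. The starved group had gone 24 h without food and was sampled at ZT13 (13 h after lights on), and the group fed ad libitum was sampled at ZT16, so feeding and collection time cannot be told apart. Each group had 3 ChIP libraries with a peak list of its own, of 30752, 23926 and 29866 peaks in starved livers and 56103, 49030 and 74950 peaks in fed livers. The number of reads behind the lists is unknown, and no label states whether each library had its own animal, and the spread behind each p-value is that of libraries, which may be technical. The input libraries were not analysed here.

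CTCF is a zinc finger protein that binds a long, GC-rich DNA motif and stops the cohesin complex as it extrudes chromatin loops. Strong sites are largely shared between tissues and mark loop anchors and insulators. Weaker sites vary more between tissues and often match the motif less well.

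The letters of CTCF's motif could be read only where a weak fed site lay over a promoter, since sequence was used here for promoter windows alone (300 bases, 250 before to 50 after a gene start). The 8 best-ranked such sites with the core of the CTCF motif on either strand are shown. They were picked by score rank among the matches, so that the letters can be seen under the strongest of these calls. The core stood in 12.0% of the promoter windows under weak fed sites, and in 13.1% of all promoters weighted to the same GC content. A match alone therefore does not show that CTCF bound these letters. The core searched, taken from general knowledge of CTCF and not from these data, is CC, any 3 bases, AG, any 2 bases and GGC. Each line gives the gene and its strand of the promoter from 5′ to 3′, with the 12 matching bases in capitals; where the core lies on the other strand, the capitals are its reverse complement. Stretches that reach beyond the gene start are kept to 30 bases. Sequences are from RefSeq promoters of GRCm38.p6, the same build as mm10.
Cep152: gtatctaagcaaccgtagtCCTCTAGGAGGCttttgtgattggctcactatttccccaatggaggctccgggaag
Gm46414: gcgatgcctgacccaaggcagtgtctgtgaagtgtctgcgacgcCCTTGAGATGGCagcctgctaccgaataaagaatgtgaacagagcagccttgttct
Aarsd1: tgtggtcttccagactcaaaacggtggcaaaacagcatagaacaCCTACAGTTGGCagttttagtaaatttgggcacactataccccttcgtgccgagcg
Dazap2: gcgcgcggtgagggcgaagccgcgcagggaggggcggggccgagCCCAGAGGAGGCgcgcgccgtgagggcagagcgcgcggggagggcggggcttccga
Med1: tgctggagcGCCTCCTCCGGGgcgctgctc
Samd5: gagcgccgcGCCTGCTCGGGGaatccactt
Tacc2: gctcacactGCCTCCTTTCGGgcagctcca
Trnau1ap: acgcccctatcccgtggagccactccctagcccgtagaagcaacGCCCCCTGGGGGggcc

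The Cep152 stretch, at a centrosome gene, is chr2:125625289-125625363 on the minus strand. Its site (125625111 to 125625449) was called in fed 3 with a score of 38.6 and in no other list. The Gm46414 stretch is chr13:51208511-51208610 on the plus strand, and its site (51208414 to 51208710) was called in fed 3 with a score of 25.8. There the motif lay 0 bp from the middle of the site, the closest of the 8. The Aarsd1 stretch (an alanyl-tRNA editing gene) is chr11:101417481-101417580, minus strand. Its site was the 1 among the 8 called in a pair of libraries, with scores of 18.1 in fed 1 and 30.5 in fed 3. The other 5 sites were called in fed 3 alone. Dazap2 is at chr15:100615414-100615513 on the plus strand (score 20.4), and Med1, a subunit of the Mediator complex, at chr11:98192871-98192900 on the minus strand (19.8). Samd5 is at chr10:9675170-9675199 on the minus strand (19.03) and Tacc2 at chr7:130692627-130692656 on the plus strand (17.3). Trnau1ap, a factor for selenocysteine incorporation, is at chr4:132329539-132329598 on the minus strand (16.9), and of the 8 it is the one that also matched a stricter form of the core, with GG in place of the last 2 free bases. The middle of the motif was between 0 and 206 bp from the middle of its site.

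Most weak fed sites came from a single library. Of the 30459 sites, 20508 (67.3%) were called in 1 fed list and 9951 (32.7%) in 2. Fed 3, the longest list, held 18811 of them alone, which is 61.8% of all weak fed sites. Fed 1 held 1325 alone and fed 2 held 372 alone. Among the sites of 2 lists, 7890 were shared by fed 1 and fed 3, 1953 by fed 2 and fed 3 and 108 by fed 1 and fed 2.

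**Figure D1:**
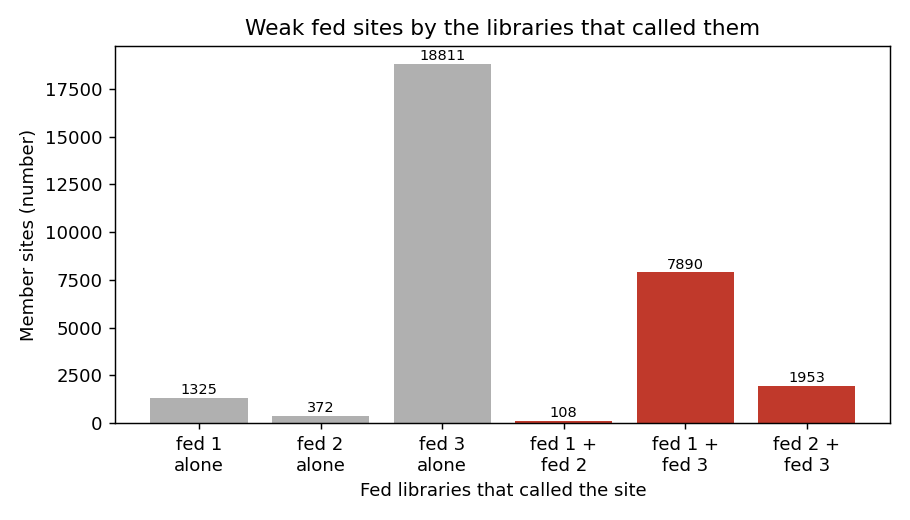
Number of weak fed sites (vertical axis) by the fed libraries that called them, for sites of 1 library (grey) and of 2 libraries (red). Fed 3 alone accounted for 18811 of the 30459 sites and fed 1 with fed 2 for 108.

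The weak sites of fed 1 and fed 2 were mostly found again in fed 3. Of the 9323 weak fed sites in fed 1, 84.6% were also called in fed 3 and 1.16% in fed 2. Of the 2433 in fed 2, 80.3% were also in fed 3 and 4.44% in fed 1. Of the 28654 in fed 3, 27.5% were also in fed 1 and 6.82% in fed 2. They made up 38.6% of the sites of fed 3, 17.1% of those of fed 1 and 5.13% of those of fed 2. List length moves with these counts, and its part in them was not tested. With fed 3 left out altogether, 12335 sites were called in exactly 1 of the remaining 2 fed lists and in no starved list.

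Nearly all sites of 1 or 2 fed lists lacked a starved peak. Of 31076 sites in 1 or 2 fed lists, 30459 (98.0%) had no starved peak, a count of the rule's own condition. The share was 99.2% for sites of 1 fed list and 95.7% for sites of 2, against 29.1% of the 44909 sites of all 3 fed lists. The reverse pattern, a peak in 1 or 2 starved lists and in no fed list, was met by 76 sites (0.0999% of all sites). The fed lists are longer, with 49030 to 74950 peaks against 23926 to 30752 in the starved lists. With the 23926 best-scored peaks of each list, 1163 of 28133 sites (4.13%) met the same rule. They are not among the 30459, whose peaks all rank below that cut in the fed lists. The reverse count is not given for that setting, and the part of list length was not tested. Of the weak fed sites, 4081 (13.4%) had a starved peak within 1 kb without overlap, 15.5% of those of 1 list and 9.01% of those of 2.

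Their peaks had low scores in the authors' lists, a description that the rule itself favours. No source used here defines the score, one number per peak, and ranks are its percentiles within a list. Peaks of weak fed sites had a median rank of 13.7 in fed 1, 8.59 in fed 2 and 20.4 in fed 3. Peaks of sites in all 3 fed and no starved list had medians of 31.5, 22.2 and 48.8 in these libraries, and peaks of sites in all 6 lists 79.5, 76.4 and 84.9. The median scores of weak fed peaks were 7.23, 6.48 and 8.08, and their highest scores were 38.6, 24.2 and 67.0, in fed 1, fed 2 and fed 3.

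In fed 3 these peaks made up 94.3% of peaks ranked under 10, 68.0% between 30 and 40, and 7.12% between 50 and 60. In fed 1 they made up 63.0% of peaks ranked under 10 and 14.7% between 30 and 40, and in fed 2 28.7% and 0.809%. Above a rank of 70 none of the 3 lists had a weak fed peak. At the edge of the rule, sites of 2 fed lists and no starved list had a median rank of 22.2. Just outside it, the 13072 sites of 3 fed lists without a starved peak had 33.4, and the 414 sites of 2 fed and 1 starved list had 26.9. Sites of 1 fed list had 14.9 inside the rule, and the 167 with 1 starved peak outside it had 24.3.

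**Figure D2:**
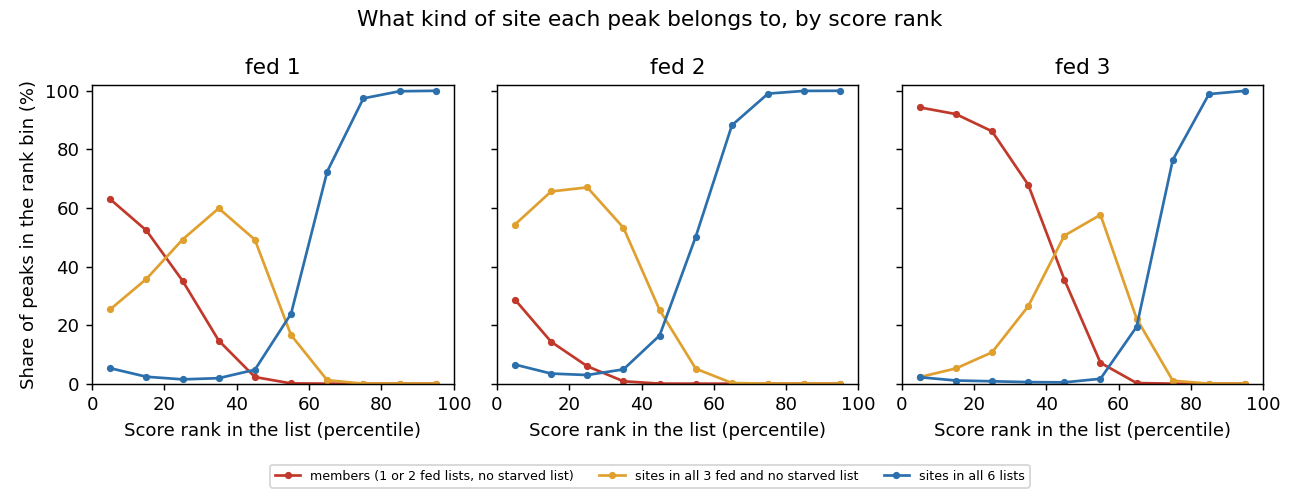
Share of the peaks in each 10 percentiles of the score ranks (vertical axis, percent) that belonged to weak fed sites (red), sites in all 3 fed and no starved list (yellow) or sites in all 6 lists (blue), in fed 1, fed 2 and fed 3. Weak fed sites held 94.3% of the lowest 10 percentiles in fed 3, 63.0% in fed 1 and 28.7% in fed 2.

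Weak fed peaks were narrow. Their median width was between 182 and 210 bp in the 3 fed libraries, against 228 to 316 bp for sites of all 3 fed and no starved list and 609 to 780 bp for sites of all 6 lists. Each fed list had a smallest width, of 154, 152 and 144 bp, and 7.84%, 12.6% and 6.38% of weak fed peaks had exactly that width. In fed 3, 96.3% of all peaks of the smallest width belonged to weak fed sites.

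Where 2 fed libraries called the same weak site they placed it at nearly the same position. The midpoints of the 2 peaks were a median of 26 bp apart for fed 1 with fed 3, 30 bp for fed 2 with fed 3 and 30 bp for fed 1 with fed 2. For sites of all 3 fed and no starved list the same pairs gave 25, 27 and 24 bp, and for sites of all 6 lists 42, 44 and 38 bp. Overlap is what joined these peaks, which limits the offset. The score ranks of the 2 peaks were less alike: Spearman's rho across sites was 0.38 for fed 1 with fed 3 (7890 sites), 0.29 for fed 2 with fed 3 (1953) and 0.31 for fed 1 with fed 2 (108). It was 0.69, 0.63 and 0.59 for the 13072 sites of all 3 fed and no starved list, over a wider range of ranks. The sites of a pair share the same 2 libraries, so these are descriptions.

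Positions relative to genes were not used by the rule and were compared within each fed library. Weak fed peaks lay inside genes more often than the others in all 3 libraries. The share was 68.8% in fed 1, 71.1% in fed 2 and 70.7% in fed 3, against 67.0% in each of these libraries for sites of all 3 fed and no starved list, and 58.5%, 58.4% and 58.7% for sites of all 6 lists. The mean difference was 3.19 ± 1.28 percentage points from the first and 11.6 ± 1.27 from the second (SD, n = 3). Both gave p = 0.25 in a two-sided exact sign-flip permutation test, the smallest value that 3 pairs allow, so no difference here could reach the usual threshold. The 3 pairs are also not independent. The comparison sites are the same in each library, and most weak fed sites of fed 1 and fed 2 are also in fed 3. When the peaks of all 3 fed and no starved list were weighted to the score ranks of the weak fed peaks, the mean difference was −0.745 points (exact permutation p = 0.75). Weighted in the same way, the difference from sites of all 6 lists was 2.94 points (exact permutation p = 0.5), with fed 1 at −1.71. That value rests on few peaks of sites in all 6 lists. Between ranks 20 and 30 these made up 1.46%, 2.95% and 0.815% of peaks in fed 1, fed 2 and fed 3. In lists of equal length, where other, stronger sites met the rule, the differences were 4.91 and 5.16 points.

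Near gene ends, weak fed peaks were more frequent than peaks of sites in all 6 lists in all 3 libraries. They were more frequent than peaks of sites in all 3 fed and no starved list in fed 2 and fed 3, and level with them in fed 1. Their midpoint was within 1 kb of an annotated gene end in 21.4% of peaks in fed 1, 32.3% in fed 2 and 26.7% in fed 3. Peaks of all 3 fed and no starved list gave 21.5%, 21.5% and 21.1%, and peaks of all 6 lists 19.7% to 20.1%. The weak fed values spread over more than 10 points while the others differed by less than 1 point. The others are the same sites in each fed library, so their values could hardly differ. The difference from sites of all 3 fed and no starved list was 5.43 ± 5.44 points (SD, n = 3, exact permutation p = 0.5). That from sites of all 6 lists was 6.87 ± 5.52 points (p = 0.25 in the same exact test). Weighted to the same score ranks the 2 differences were −1.47 and −12.5 points, so their direction did not hold there. In lists of equal length, where other, stronger sites met the rule, they were −0.224 and −4.06. The −12.5 rests on few peaks of sites in all 6 lists, whose weighted shares were 45.3%, 40.5% and 32.0% in fed 1, fed 2 and fed 3. Without fed 2 the 2 differences were 2.91 and 4.57 points, with merging within 500 bp 1.98 and 2.28, and with peaks trimmed to 200 bp 9.55 and 11.8. Grouped by the libraries that called them, 18.9% of the sites of fed 1 alone, 29.8% of fed 2 alone and 28.2% of fed 3 alone were near a gene end. It was 21.4% for fed 1 with fed 3, 32.8% for fed 2 with fed 3 and 29.6% for fed 1 with fed 2.

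Leaving out the sites of fed 3 alone changes the values of that library only. Its remaining 9908 weak fed peaks were near a gene end in 23.9% of cases and inside a gene in 69.2%. They lay within 5 kb of a site of all 6 lists in 18.5%, and 11.2% of the promoters under them held the CTCF core described below.

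**Figure D3:**
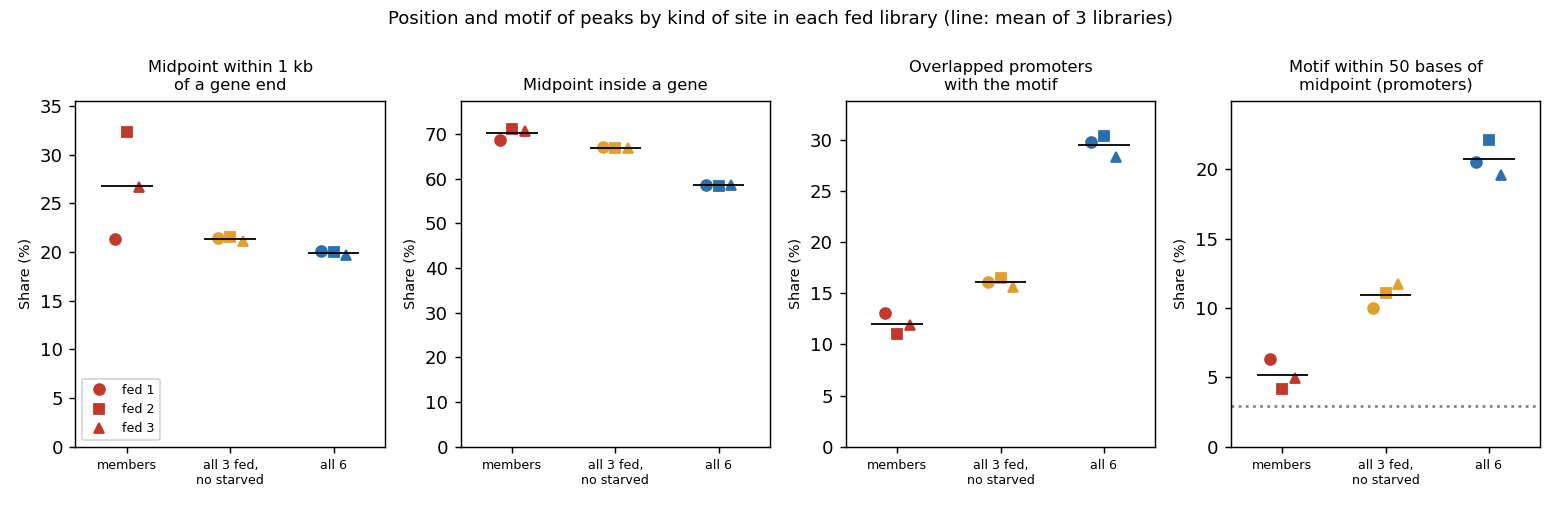
Share (vertical axis, percent) of peaks near gene ends and inside genes, of overlapped promoters that hold the motif, and of peaks with the motif within 50 bases of the midpoint, for weak fed sites (members), sites in all 3 fed and no starved list and sites in all 6 lists. Points are fed 1 (circle), fed 2 (square) and fed 3 (triangle), lines are means of 3 libraries, and the dotted line is the share over all promoter stretches of the same length (2.93%). Weak fed sites are lowest in both motif panels in every library.

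Around gene starts the weak fed peaks lay more often on the transcribed side. Between 200 and 2000 bp after the nearest start lay 9.13%, 12.5% and 11.2% of weak fed peaks in fed 1, fed 2 and fed 3, and 5.98%, 7.22% and 7.04% lay at the same distance before it. Sites of all 3 fed and no starved list had a like asymmetry, with 8.77%, 8.56% and 8.77% after and 5.36%, 5.38% and 5.22% before the start. For sites of all 6 lists it was 5.32%, 5.22% and 4.97% after and 5.55%, 5.58% and 5.46% before the start. The share after the start was 5.76 ± 1.76 points higher than for sites of all 6 lists (SD, n = 3, exact permutation p = 0.25, higher in 3 of 3 libraries). It was 2.22 ± 1.78 points higher than for sites of all 3 fed and no starved list (p = 0.25 in the exact test, also 3 of 3). In the 200 bp after the start alone lay 2.84%, 6.68% and 4.67% of weak fed peaks, against 3.38%, 3.53% and 3.21% of peaks of sites in all 3 fed and no starved list and 1.97%, 1.98% and 2.22% of peaks of sites in all 6 lists. In fed 1 weak fed peaks were thus below those of all 3 fed lists there, and in fed 2 and fed 3 above them.

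**Figure D4:**
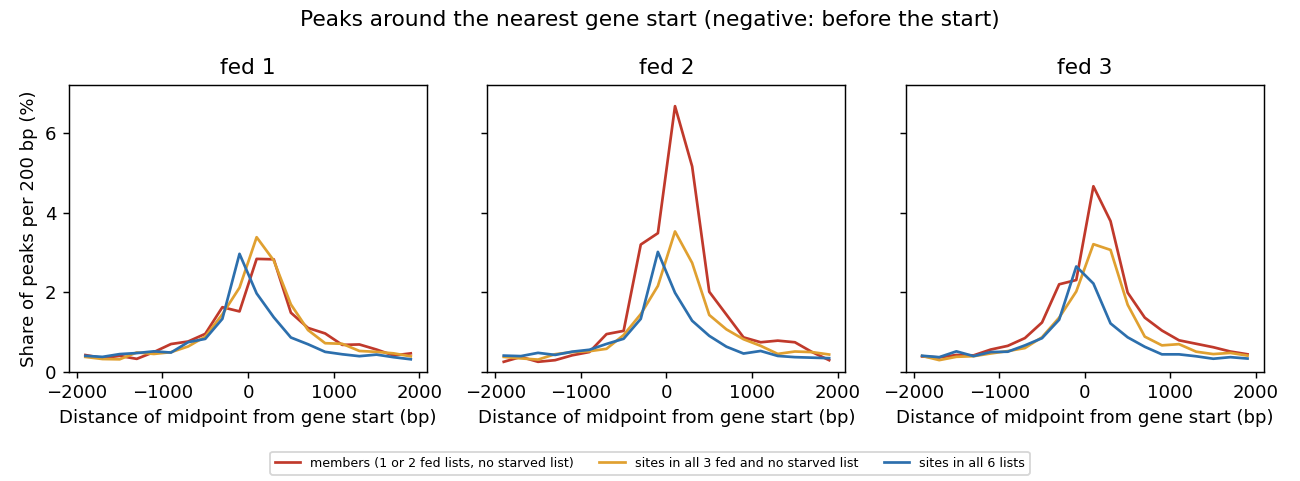
Share of peaks per 200 bp (vertical axis, percent) by distance of the midpoint from the nearest gene start (horizontal axis, bp, negative before the start) in fed 1, fed 2 and fed 3. Weak fed peaks (red) are highest in the 200 bp after the start, at 2.84%, 6.68% and 4.67%, while peaks of sites in all 6 lists (blue) are highest in the 200 bp before it, at 2.96%, 3.01% and 2.65%.

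The CTCF core was less frequent in promoters under weak fed peaks than under stronger ones. Weak fed sites overlapped 3162 of 32851 promoter windows, of 2878 genes, and 378 of these windows (12.0%) held the core on either strand, against 8.61% of all promoter windows. By library it was 13.04%, 11.01% and 11.9% of windows under weak fed peaks in fed 1, fed 2 and fed 3. It was 16.1%, 16.5% and 15.6% under sites of all 3 fed and no starved list, and 29.8%, 30.4% and 28.3% under sites of all 6 lists. The differences were −4.10 ± 1.26 and −17.5 ± 1.62 points (SD, n = 3, exact permutation p = 0.25 each, lower in 3 of 3 libraries). They were −2.10 and −5.54 points with the stronger peaks weighted to the score ranks of the weak ones (exact permutation p = 0.25 and 0.5). Of these, the one from sites of all 6 lists rests on few of their peaks and was the other way in fed 1, at 1.83 points. Rank classes with few promoters were left out, so the ranks were matched only in part. In lists of equal length, where other, stronger sites met the rule, they were −1.16 and −10.2 points. The difference from sites of all 3 fed and no starved list was −1.24 without fed 2, −2.21 without fed 3, −2.25 with a score limit and −2.42 with peaks trimmed to 200 bp. Promoters under weak fed sites were GC-rich, with a median of 63.3% G or C against 52.7% for all promoters. All promoters weighted to that GC content held the core in 13.1%, close to the 12.0% seen.

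The stricter form, which overlaps the core at every match, gave 47 of 3162 windows (1.49%) under weak fed sites, 2.04% under sites of all 3 fed and no starved list and 9.10% under sites of all 6 lists. It was in 1.28% of all promoter windows and in 2.28% at the GC content of the weak fed ones. A missing match says only that these letters are not in the window.

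The motif was also read within 50 bases on either side of the peak midpoint, wherever these lay wholly within a promoter window, a measure added after the other values were seen. Among weak fed peaks, 10 of 158 in fed 1 (6.33%, exact 95% interval 3.08 to 11.3), 4 of 96 in fed 2 (4.17%, 1.15 to 10.3) and 37 of 750 in fed 3 (4.93%, 3.50 to 6.74) had the core. Stretches of the same length at the same promoter GC content had it in 4.24%, 4.71% and 4.53%, values inside these intervals, which cover counting error only. Sites of all 3 fed and no starved list had it in 10.03%, 11.1% and 11.7%, and sites of all 6 lists in 20.5%, 22.1% and 19.6%. The mean was 5.14 ± 1.10% for weak fed peaks, against 10.96 ± 0.857% and 20.8 ± 1.29% (SD, n = 3, exact permutation p = 0.25 for each difference).

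Weak fed sites were spread over the whole genome. They were found in 2298 of the 2462 megabase windows with any site (93.3%), with a median of 8 and a maximum of 81 per window. That maximum, of 157 sites in all, lay between 120000001 and 121000000 on chromosome 11. Their share of all sites ran from 35.2% on chromosome X to 42.3% on chromosome 4, leaving out chromosome Y with 33 sites. Weak fed sites had any other site within 5 kb in 58.3% of cases and a site of all 6 lists in 22.2%. As peaks, 19.05%, 19.8% and 22.1% in fed 1, fed 2 and fed 3 lay within 5 kb of a site of all 6 lists, against 17.4%, 17.5% and 17.5% for sites of all 3 fed and no starved list. The difference was 2.83 ± 1.56 points (SD, n = 3, exact permutation p = 0.25) and −3.88 points in lists of equal length, where other sites met the rule. It was 6.32 without fed 1, 5.66 without fed 2, 6.89 with peaks trimmed to 200 bp, 0.481 with merging within 500 bp and 0.0038 with a score limit, so its size rested on these choices.

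Some long genes held many weak fed sites. Gse1 (chromosome 8, 120228501 to 120581383) had 36 within the gene or 5 kb of it, of 68 sites in all, the most of 21896 protein-coding genes. Nav2, of the neuron navigator family (chromosome 7, 48959063 to 49610090), had 28 of 53. Rora, a nuclear receptor that activates clock genes (chromosome 9, 68653404 to 69388246), had 25 of 58. Gm37013 and Gm38666, annotated over nearly the same stretch of chromosome 18 up to 37841873, had 26 of 53 and 25 of 51, and so share most of their sites. Weak fed sites were 52.9% of the sites of Gse1, 52.8% of Nav2, 49.1% of Gm37013, 49.0% of Gm38666 and 43.1% of Rora. Over all sites the share was 40.0%, and these genes were picked for their counts. The median gene had 1, and 9976 genes had 0.

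The best-ranked weak fed sites of 2 lists were all called in fed 1 and fed 3. The first was 11444 bp outside Gli2, a transcription factor of Hedgehog signalling (chromosome 1, 118822327 to 118822617), with scores of 35.6 in fed 1 and 50.1 in fed 3. The next, at Maip1, was 5726 bp outside the gene (chromosome 1, 57423679 to 57423961; scores 31.6 and 48.0). Inside genes lay sites of Acaca, the acetyl-CoA carboxylase that starts fatty acid synthesis (chromosome 11, 84193285 to 84193794; 30.3 and 46.9), and Lama2, a laminin chain (chromosome 10, 27162342 to 27162690; 25.2 and 54.2).

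Ptk2b, a focal adhesion kinase family gene, held another (chromosome 14, 66187145 to 66187541), with scores of 24.2 in fed 1 and 54.6 in fed 3. Gpatch2 (chromosome 1, 187241344 to 187241717) and Tmem184a (chromosome 5, 139809415 to 139809733) each held 1 inside the gene. The remaining 3 of the 10 were outside 4930432M17Rik, Slc28a3, a nucleoside transporter, and Gm20918 on chromosome Y, at distances of 10464, 89550 and 218158 bp. All 10 had higher scores in fed 3 than in fed 1 except the site in Tmem184a, with 36.7 in fed 1 and 34.2 in fed 3.

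The 5 best sites of a single list were all from fed 3. The highest was that over the end of Cep152, whose sequence is shown above, at a rank of 57.1. The others were outside Chrd, a secreted antagonist of BMP (chromosome 16, 20820990 to 20821230, score 36.9), and inside Ifng, the interferon gamma gene (chromosome 10, 118441952 to 118442208, 35.6). Sites outside Pwwp2b (chromosome 7, 139308641 to 139309306) and Car8 (chromosome 4, 7891208 to 7891445) had scores of 34.0 and 33.1.

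Of the 21896 protein-coding genes, 9840 (44.9%) had a weak fed site within 5 kb of an annotated end, and 2513 (11.5%) had such a site and no other. Leaving out the sites of fed 3 alone, 4604 genes (21.0%) had one. Of the 12 lists below, 10 were above the share of all genes, and the markers of other liver cells and the neuronal and muscle genes were below it. Without the sites of fed 3 alone, the CTCF and cohesin list was below it too, and those of fatty acid synthesis (23.8%) and acute phase (22.7%) were close to the 21.0% of all genes. The lists also differed in how many genes had any site with a fed peak within 5 kb. Over all genes it was 15135 of 21896, in gluconeogenesis 17 of 17, in fatty acid synthesis 21 of 21 and in the clock 22 of 22. It was 16 of 31 for markers of other liver cells and 22 of 30 for neuronal and muscle genes. The shares of genes with a weak fed site are not adjusted for this. The lists were chosen with earlier results of these data known and were not tested, and genes of one list can share a site.

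**Figure D5:**
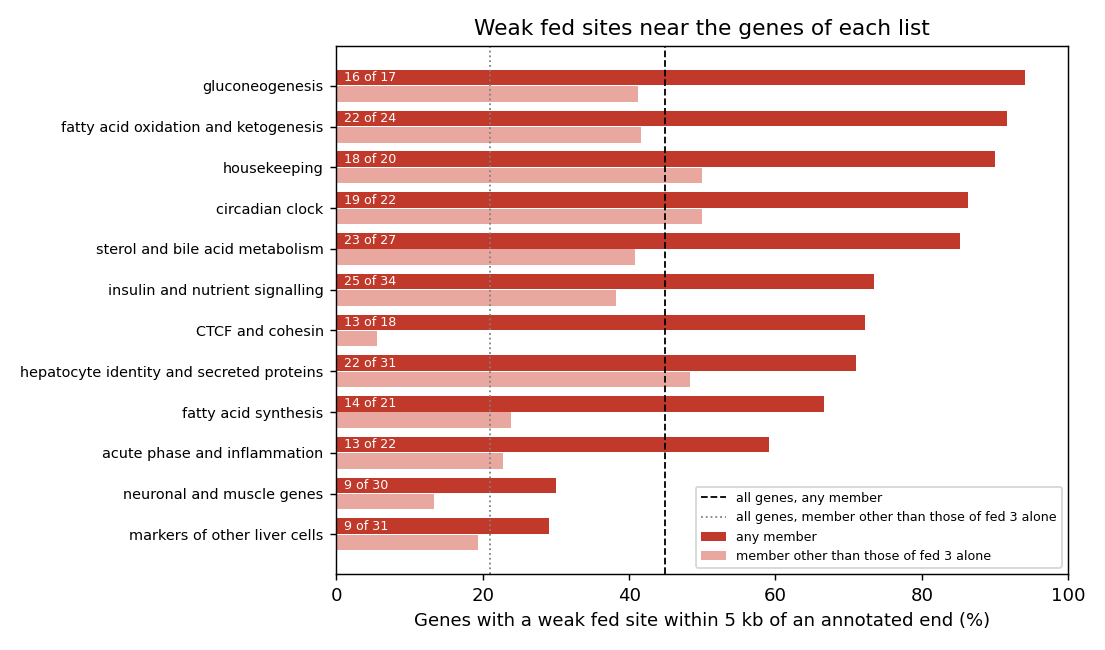
Share of the genes of each list (horizontal axis, percent) with a weak fed site within 5 kb of an annotated end, for all weak fed sites (dark bars, with the number of genes) and without the sites of fed 3 alone (light bars). Lines mark the same shares over all protein-coding genes, 44.9% (dashed) and 21.0% (dotted).

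In gluconeogenesis, 16 of 17 genes had a weak fed site, and 7 of 17 had one without those of fed 3 alone. Creb3l3, a liver transcription factor active in fasting, had one inside the gene (chromosome 10, 81096608 to 81096835) with scores of 11.8 in fed 1 and 22.8 in fed 3. Gcgr, the glucagon receptor (chromosome 11, 120524150 to 120524477), G6pc3, a glucose-6-phosphatase (chromosome 11, 102195454 to 102195668, closest to Hdac5), and Creb1, the cAMP response factor (chromosome 1, 64533486 to 64533780), each had one in fed 3 alone, with scores of 18.4, 14.7 and 13.2. Pck1, which commits oxaloacetate to glucose synthesis, was the 1 gene of the 10 chosen whatever their values that had 0.

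In fatty acid oxidation and ketogenesis it was 22 of 24 genes, and 10 of 24 without the sites of fed 3 alone. Within Cyp4a10, a fatty acid hydroxylase, lay one (chromosome 4, 115530399 to 115530681) with scores of 13.3 in fed 1 and 28.2 in fed 3. Acads, the short-chain acyl-CoA dehydrogenase (chromosome 5, 115117709 to 115117983, 18.7), and Acat1, a mitochondrial thiolase (chromosome 9, 53610106 to 53610313, 16.9), had theirs in fed 3 alone. So did Hadha, a subunit of the mitochondrial trifunctional protein, at a site over the end of its neighbour Garem2 (chromosome 5, 30118342 to 30118673, 13.3).

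The nuclear receptor gene Ppara, which drives this programme, had 1 weak fed site (chromosome 15, 85736065 to 85736212) with a score of 2.42 in fed 3, a rank of 0.239, near the bottom of the list. Its target Fgf21, a fasting hormone, had 1 and no other site within 5 kb (chromosome 7, 45614782 to 45615004, score 7.59 in fed 3). Cpt1a, which loads fatty acids for mitochondrial import, had 2. One was in fed 2 and fed 3 (chromosome 19, 3323355 to 3324047; 3.84 and 11.5) and one in fed 3 alone (3325108 to 3325276, 9.34).

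In fatty acid synthesis, 14 of 21 genes had a weak fed site and 5 of 21 without those of fed 3 alone. Scd1, the stearoyl-CoA desaturase, had one inside the gene (chromosome 19, 44398526 to 44398905) with scores of 8.39 in fed 1 and 22.6 in fed 3. Elovl5, a fatty acid elongase, had one 260 bp outside (chromosome 9, 77916890 to 77917105, 14.8 in fed 3), and Dgat2, which makes triglycerides, one inside (chromosome 7, 99181810 to 99181974, 10.6). Acaca also had one near its end in fed 3 (84398624 to 84398854, 12.8). Fasn, the fatty acid synthase, had 2, one in fed 1 and fed 3 (chromosome 11, 120807571 to 120807842; 8.54 and 8.62) and one in fed 2 and fed 3 (120824715 to 120824955; 5.15 and 4.75). The site of fed 2 and fed 3 at Fasn lay 96 bp from a starved peak. Other named sites within 1 kb of a starved peak included those at Creb1 (189 bp), Nr1d2 (250 bp), Yy1 (523 bp) and Tubb5 (714 bp). The Cpt1a site of fed 2 and fed 3 was 717 bp from one.

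In sterol and bile acid metabolism, 23 of 27 genes had a weak fed site, and 11 of 27 without those of fed 3 alone. Genes with weak fed sites and no other site were 7 of 27 here, against 11.5% of all genes. They were 6 of 24 in fatty acid oxidation and ketogenesis and 5 of 22 in acute phase and inflammation, and 5.88% to 16.7% in the other lists. Insig2, which holds the sterol sensor in the endoplasmic reticulum, had one outside the gene (chromosome 1, 121335576 to 121336067; 11.8 in fed 1 and 23.6 in fed 3). Fdps, a prenyl synthase (chromosome 3, 89098502 to 89098745, 18.2), and Cyp51, lanosterol demethylase (chromosome 5, 4103957 to 4104215, 11.5), had theirs in fed 3 alone.

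In insulin and nutrient signalling it was 25 of 34 genes, 13 of 34 without the sites of fed 3 alone. Insr, the insulin receptor, had one 731 bp outside (chromosome 8, 3280380 to 3280887; 20.1 in fed 1 and 24.0 in fed 3). The site near Pik3ca, the catalytic PI3 kinase subunit, lay inside Kcnmb3 (chromosome 3, 32469164 to 32469451; 19.9 and 30.6), and that near Stk11, the kinase that activates AMPK, inside Cbarp (chromosome 10, 80133280 to 80133701; 12.3 and 40.8). Sesn1, a stress-induced inhibitor of mTORC1, had one in fed 3 alone, over the end of Cep57l1 (chromosome 10, 41809668 to 41809935, 16.8).

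In the circadian clock, 19 of 22 genes had a weak fed site, 11 of 22 without those of fed 3 alone. Per3 had one inside the gene (chromosome 4, 151044014 to 151044618; 9.54 in fed 2 and 24.7 in fed 3), and Cry1, a repressor, one 854 bp outside (chromosome 10, 85185908 to 85186136; 8.73 in fed 1 and 14.2 in fed 3). The repressors Nr1d2 (chromosome 14, 18238143 to 18238466, 12.3) and Bhlhe41 (chromosome 6, 145856310 to 145856594, 10.96) had theirs in fed 3 alone, as did Nr1d1 (chromosome 11, 98774789 to 98775003, 5.80). The 2 groups differ in collection time, so a clock difference and feeding cannot be told apart here.

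Among hepatocyte identity and secreted protein genes it was 22 of 31, and 15 of 31 without the sites of fed 3 alone. The 2 fibrinogen genes Fgg (chromosome 3, 83016692 to 83017108; 9.95 in fed 1 and 32.5 in fed 3) and Fgb (83040517 to 83040882; 10.02 and 18.3) each had one outside, 1636 and 1364 bp away. Afp, the fetal albumin relative, had one 1450 bp outside (chromosome 5, 90510357 to 90510589; 10.2 and 18.2). Prox1 (chromosome 1, 190174724 to 190175002; 6.85 and 22.6) and Hnf4a (chromosome 2, 163575130 to 163575350; 4.29 and 16.3), transcription factors of hepatocytes, had theirs outside the gene. Alb, the albumin gene, had a single weak site (chromosome 5, 90462849 to 90463005), with a score of 3.30 and a rank of 1.32 in fed 3.

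In acute phase and inflammation, 13 of 22 genes had a weak fed site and 5 of 22 without those of fed 3 alone. Orm2, an acute phase protein (chromosome 4, 63362317 to 63362721, 15.04), Stat3, which transmits the interleukin-6 signal (chromosome 11, 100939845 to 100940019, 12.3), and Hp, haptoglobin, at a site inside Txnl4b (chromosome 8, 109571740 to 109572195, 11.9), had theirs in fed 3 alone. Nfkb1 had one inside the gene (chromosome 3, 135690681 to 135691115; 8.55 in fed 1 and 18.6 in fed 3).

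Genes of CTCF and cohesin depended most on fed 3: 13 of 18 had a weak fed site, and 1 of 18 without those of fed 3 alone. That one was Zfp143, a factor found at loop anchors (chromosome 7, 110096516 to 110096726; 8.02 in fed 1 and 23.7 in fed 3). Yy1 (chromosome 12, 108793011 to 108793190, 17.2), the cohesin subunit gene Smc3 (chromosome 19, 53644168 to 53644344, 12.8) and Ctcf itself (chromosome 8, 105678010 to 105678179, 11.8) had theirs in fed 3 alone.

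Among housekeeping genes it was 18 of 20, and 10 of 20 without the sites of fed 3 alone, with Tubb5 (15.3 in fed 3), Tbp (13.2 in fed 3) and Sdha (7.76 in fed 1 and 30.6 in fed 3) among the best-ranked. Markers of other liver cells gave 9 of 31, or 6 of 31 without the sites of fed 3 alone. The best were at Csf1r, the macrophage receptor (14.1 in fed 1 and 35.6 in fed 3), Kdr, the endothelial VEGF receptor (14.3 and 16.7), Sox9, a bile duct factor (13.7 in fed 3), and Cdh5, an endothelial cadherin (7.21 in fed 3).

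Neuronal and muscle genes gave 9 of 30, and 4 of 30 without the sites of fed 3 alone. The best were near Tubb3 (14.3 in fed 1 and 14.2 in fed 3), Gria2 (6.02 and 19.4), Tnnt2 (closest to Lad1; 9.51 and 11.5) and Syp (over the end of Prickle3; 8.98 in fed 3). For comparison, sites of all 6 lists lay near 29.0% of the markers of other liver cells, 36.7% of the neuronal and muscle genes, 64.7% of the gluconeogenesis genes, 25.9% of the sterol and bile acid genes, 22.7% of the acute phase genes and 36.2% of all genes. The other 7 lists were between 37.5% and 58.1%. In whole liver, fewer cells of a type and weaker binding per cell cannot be told apart. Of the 73 distinct named sites, 73 were called in fed 3, 35 of them in fed 3 alone.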

How the data were processed

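CTCF ChIP-seq peak lists of 3 starved and 3 fed mouse liver libraries were used, grouped by sample title. Each was deposited per library by the authors with a score per peak, which no source used here defines. The submitters' processing notes name the build mm10 and, without roles, HOMER, MACS2, bedtools 2.17, SAMtools, BWA 0.7.5a and FastQC. Read depth and any filter on duplicates or blacklisted regions are not stated. The lists differ in length, so peaks were compared within libraries.

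Sites were made by joining peaks that shared 1 bp or more. Coordinates are counted from 1. Genes are RefSeq GRCm38.p6 (49993 with a position, both annotated ends used); promoters are RefSeq windows of the same build (32851 windows). Of 299 list entries, 297 matched by symbol. Paired differences over the 3 fed libraries were tested by a two-sided exact sign-flip permutation test, whose smallest p is 0.25. No genome was used, so motifs were read in promoters alone. Weighting used 10 classes of score rank or of promoter GC. Rank classes with fewer than 20 peaks of the comparison were left out, or for the motif those with fewer than 20 promoters under these peaks. The weights were rescaled over the classes kept, while the share of weak fed peaks used all classes.

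The members and lists were chosen with earlier results of these data known. Named were the 10 best-ranked members of 2 lists and 5 of 1 list, up to 4 genes per list by best member within 5 kb, 10 genes whatever their values (Alb, Ppara, Pck1, Cpt1a, Fasn, Fgf21, Nr1d1, Hnf4a, Ctcf and another), 8 promoters with the motif, on chromosomes other than 18, and the 5 genes with most members. Some genes that this rule names are not reported here. Alternatives were merging within 500 bp, trimming to 200 bp, a score limit, equal list length, autosomes, other windows, a stricter motif, score weighting and leaving out each library. In simulated lists, 400 of 400 members put into 45600 sites were recovered, with 0 false ones. Software was Python 3.11.15 with matplotlib 3.10.9, scipy 1.17.1, numpy 2.4.6 and pandas 2.3.3.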

Additional observations from a re-analysis of the deposited data

How the results depend on the processing

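The number of weak fed sites depended on how deep into each list peaks were taken. It was 30459 with all peaks, 9500 with scores at or above the median of 30.4 over the 6 lists, and 1163 with the 23926 best-scored peaks of each list. The 1163 are other, stronger sites, since all peaks of the 30459 rank below that cut. Most of the 9500 are also other sites, since few peaks of the 30459 score that high. The median rank of the peaks that met the rule, averaged over the fed libraries, was 14.2 with all peaks and 53.1 and 61.2 in those settings. Ranks are those in the full lists, so the cuts themselves raise them. Leaving out 1 library gave 12335 sites (without fed 3) to 30941 (without starved 1), and 11648 remained without the sites of fed 3 alone, an alternative chosen after seeing the data. Merging within 500 bp gave 24421, trimming to 200 bp 33482, and asking for no starved peak within 1 kb 26378. Genes with a weak fed site numbered 9840 within 5 kb, 6118 within 1 kb and 4604 without the sites of fed 3 alone.

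The differences that turned were those from sites of all 3 fed and no starved list near gene ends (−0.224 points in lists of equal length, −1.47 with score weighting) and inside genes (−0.745 with score weighting). From sites of all 6 lists, the difference near gene ends was −1.32 at the score limit, −4.06 in lists of equal length and −12.5 with score weighting. That last value rests on few peaks of those sites. The difference in closeness to sites of all 6 lists was −3.88 points in lists of equal length. The cause of these turns was not tested. Values in lists of equal length are of other, stronger sites. They do not test how stable the differences of the weak fed sites are. The mean motif differences kept their sign, though not in every library, in 15 of 15 alternatives for each comparison. The lists of equal length are among these alternatives. For the stricter form of the core the differences were −0.267 and −7.64 points. No alternative could pass the usual threshold, so these signs say nothing of significance. No paired analysis was possible because weak fed sites have no starved peak by the rule, and no test between starved and fed libraries was made. Read depth is unknown and limits every count of weak peaks.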
